A study of Mus musculus with 12 samples.

Results

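Cytosolic ribosomal protein genes were followed in AML246 cells, a mouse acute myeloid leukemia, across a time course of PU.1 return. Genes were taken by symbol: Rpl or Rps followed by a digit, plus Rplp0, Rplp1, Rplp2 and Rpsa. That left out 10 kinases of the Rps6k family and 35 pseudogenes or symbols with the suffix -ps. It gave 89 genes of 27179 in the count files, of which 46 are core large-subunit genes, 31 are core small-subunit genes and 11 are paralogs or retrocopies. The remaining gene, Rps19bp1, encodes a binding partner of Rps19 and is no ribosomal protein. Of the 89 genes 86 had enough counts to be tested, and Rpl10l, Rpl39 and Rpl39l did not.

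The series title describes the cells as p53-/- with a hairpin against PU.1 (shPU.1) and as cytogenetically normal. All groups share these alleles, the C57BL/6 strain and growth in bone marrow of leukemic recipients, from which GFP-positive cells were sorted. GFP is linked to the hairpin, and Dox switches the pair off. The 4 groups of 3 libraries were untreated cells sorted as GFPhigh, cells after 2 days of Dox sorted as GFPhigh-mid, cells after 4 days sorted as GFPmid and cells after 6 days sorted as GFPlow. The sort gate moved with the day, so Dox, hairpin loss, time and gate cannot be told apart. Sample titles number the replicates as technical while the design text speaks of triplicate mice, so p-values measure the spread between these libraries, which may be technical. The cells are a single leukemia, with no second line beside it. Each count is of bulk RNA, in which fewer cells of a type and less RNA per cell cannot be told apart.

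Cytosolic ribosomes are built from a large and a small subunit, each made of ribosomal RNA and a set of ribosomal proteins. Rapidly dividing cells spend much of their transcription on these parts, and the proteins are needed in near equal amounts. Most of their mRNAs start with a run of pyrimidines at the 5′ end, the 5′ TOP motif, through which mTOR signalling and Larp1 control their translation. In blood, loss of a single copy of several of these genes causes Diamond-Blackfan anaemia in humans, and myeloid cells lower ribosome production as they mature from progenitors to granulocytes.

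Total counts were 4918920 to 7356166 per library. Spi1, which encodes PU.1 (Entrez 20375, checked first because it is the target of the hairpin), had 54.2, 67.5 and 65.9 CPM (counts scaled to a fixed library size with TMM factors) in untreated cells. It had 107, 98.8 and 123 CPM at day 2, then 244, 267 and 269 CPM at day 4, and 497, 439 and 438 CPM at day 6. Each day's libraries lay above those of the day before. Trp53 was counted at 26.0 to 45.0 CPM through day 4 and at 14.0 to 17.2 CPM at day 6, and gene-level counts do not show which exons the deleted allele lacks. Markers of myeloid progenitors (8 genes, none at 0) summed to 7870 to 9910 CPM at day 6, against 29600 to 33300 CPM in untreated cells. Neutrophil markers (6 genes, none at 0) summed to 59100 to 133000 CPM at day 6, against 575 to 1590 CPM in untreated cells. Monocyte and macrophage markers (6 genes, none at 0) summed to 2550 to 3940 CPM at day 6, against 3520 to 4720 CPM in untreated cells. That sum is mostly Ly6c2, which fell at day 6, while the other 5 genes rose by edgeR's quasi-likelihood test. Stroma and endothelium markers summed to 20.9 to 27.1 CPM at day 6, against 86.7 to 129 CPM in untreated cells. Of these 6 genes only 2 had enough counts to be tested, and both were called lower at day 6. T and NK cell markers reached at most 114 CPM in any library, and eosinophil markers 871 CPM, in a day 4 library. B cell, erythroid and megakaryocyte lists stayed at or below 2.99, 6.12 and 8.46 CPM in every library, and the part of the shifts between myeloid marker lists in the results was not tested.

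The summed level of the ribosomal protein genes was lower on each later day. Together they took 2.02%, 1.90% and 2.02% of all counts in the untreated libraries and 1.76%, 1.76% and 1.74% at day 2. Their share was 1.36%, 1.27% and 1.23% at day 4 and 0.615%, 0.873% and 0.682% at day 6. No 2 groups overlapped. After TMM scaling the summed level was 17611, 17482 and 18355 CPM in the untreated libraries, 15516, 15886 and 15327 CPM at day 2, 13172, 12413 and 12009 CPM at day 4, and 8359, 10324 and 9113 CPM at day 6. The day 6 mean was 9270 ± 991 CPM, against 17800 ± 471 CPM in untreated cells (SD, n = 3 each), a log2 ratio of -0.94.

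The day 6 value depends on the scaling. Day 6 libraries had TMM factors of 0.737, 0.847 and 0.749, and the others had 1.02 to 1.15. The 10 most counted genes held 15.6%, 9.63% and 14.2% of the counts at day 6 and 4.84% to 6.18% in the other libraries. By library totals alone the log2 ratio of the summed level was -1.45. Replicate 2 of day 6, with the lowest share of counts in those 10 genes among the day 6 libraries, was the highest of the 3 for 56 of the 86 tested genes. The share of all tested genes highest in that library was not computed.

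**Figure D1:**
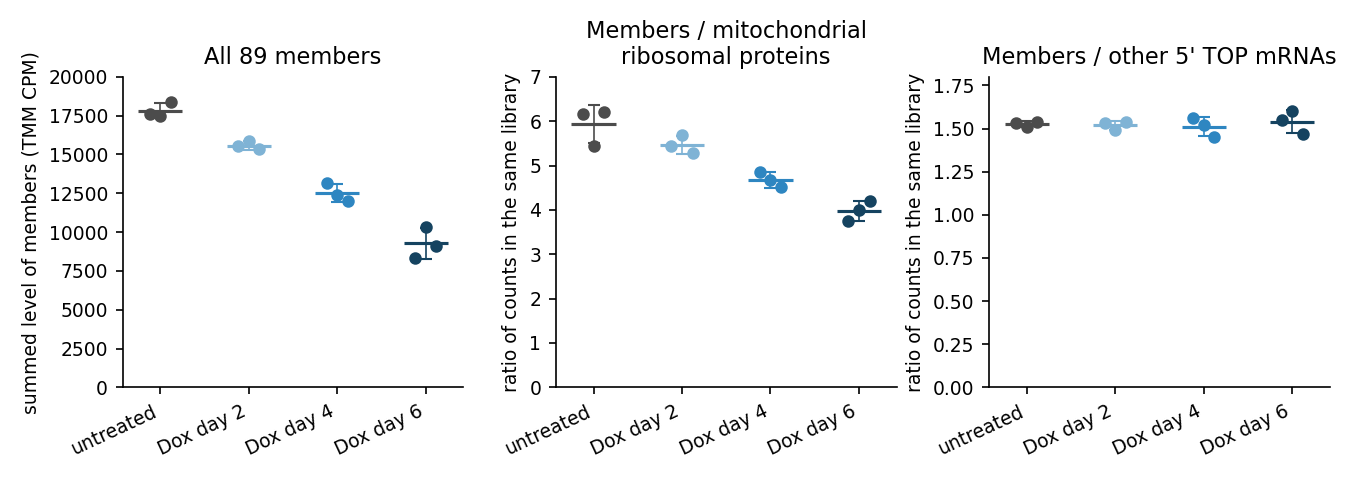
Points are libraries, bars are group means and error bars are SDs (n = 3), from untreated to day 6 on the horizontal axis. The left panel plots the summed TMM-scaled CPM of the 89 genes, which drops at every day without overlap. The middle panel plots their counts over those of mitochondrial ribosomal proteins in the same library, 3.74 to 4.20 at day 6 and 5.44 to 6.20 in untreated cells. The right panel plots their counts over those of other 5′ TOP mRNAs, which stays between 1.45 and 1.60.

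Ratios within a library do not depend on scaling. Cytosolic ribosomal protein counts were 3.74, 3.99 and 4.20 times those of mitochondrial ribosomal proteins at day 6, against 6.17, 5.44 and 6.20 times in untreated cells. The groups did not overlap. Against the other 5′ TOP mRNAs (elongation factors, Pabpc1, Tpt1 and the like) the ratio was 1.55, 1.60 and 1.47 at day 6 and 1.53, 1.51 and 1.54 in untreated cells, so the groups overlapped. Small-subunit over large-subunit counts were 0.735 to 0.739 in untreated cells. The range was 0.680 to 0.717 at day 2 (below untreated), then 0.726 to 0.756 at day 4 (overlapping it), and day 6 gave 0.816 to 0.844 (above it). Without the 3 P stalk genes the ratio was 1.07, 1.06 and 1.10 in untreated cells. At day 6 it was then 1.12, 1.13 and 1.14, still above untreated. Without the 3 P stalk genes and Rps3 the ratio was 0.875 to 0.925 in untreated cells. Day 2 gave 0.815 to 0.852, day 4 gave 0.842 to 0.883 and day 6 gave 0.882 to 0.906. Here only day 2 did not overlap untreated. At day 6 the P stalk genes fell more than the median member, and Rps3 fell least of the called genes. Leaving them out therefore had to lower the day 6 ratio relative to untreated.

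Gene by gene, 76 of the 86 tested genes were lower at day 6 than in untreated cells and none was higher (adjusted p under 0.05, edgeR's quasi-likelihood test). Over all 12057 tested genes 32.9% were called lower and 35% higher. The median log2 fold change was -0.91 for the ribosomal protein genes and 0 for all tested genes, and the middle portion of the members, from the lower to the upper quartile, lay between -1.16 and -0.75. At day 6, 78 of the 86 genes had all 3 libraries below all 3 untreated libraries, against 33.9% of all tested genes, and no gene had all 3 above. With TMM the all-gene median stayed near 0. Upper-quartile factors moved it by -0.11 at day 4 and -0.25 at day 6, and library totals by -0.13 and -0.52. Relative to that shift the ribosomal protein median was -0.49 at day 4 and -0.91 or -0.90 at day 6.

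Day 4 gave 60 genes called lower and none called higher than untreated, with a median of -0.51, where 20.2% of all tested genes were lower and 22.1% higher. None of the 60 passed a test against a 1.5-fold change, which 51 genes passed at day 6. The share of all tested genes passing that test was not computed. Day 2 gave 1 gene called lower and none called higher, with 0.406% of all tested genes lower and 1.05% higher. At day 2 the log2 fold change was below 0 for 74 of 86 genes, with a median of -0.19, against 0 for all tested genes. At an unadjusted p under 0.05 by the same test, 24 were lower and 0 higher. The share of all tested genes at that unadjusted p was not computed, so these 2 counts stand without a background. DESeq2 and limma voom called no ribosomal protein gene higher at day 4 or day 6, and no gene had an unadjusted p under 0.05 in that direction on either day.

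**Figure D2:**
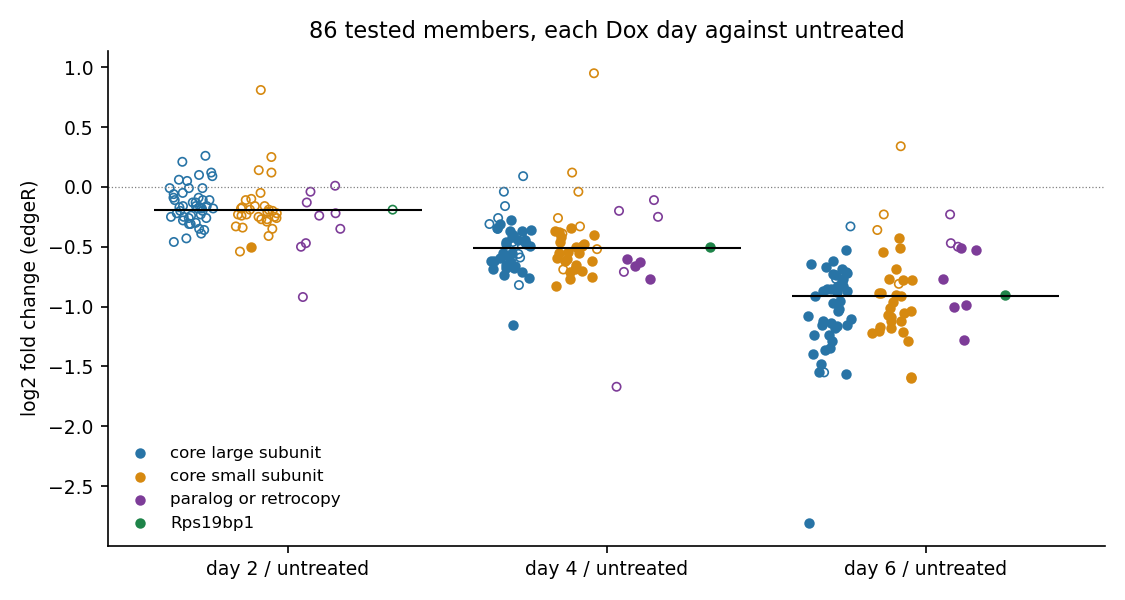
Each point is a tested gene, with its log2 fold change over untreated on the vertical axis for day 2, day 4 and day 6. Filled points passed the test, open points did not, colours give the class and black lines mark the medians of -0.19, -0.51 and -0.91. Points called lower number 1, 60 and 76, and the open point near 1 at day 4 is Rps21.

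The single gene called at day 2 was Rps14, a small-subunit protein whose single-copy loss marks the human del(5q) blood syndrome. Its 3 untreated libraries had 467, 516 and 497 CPM, and day 2 gave 348, 360 and 337 CPM. Day 4 gave 305, 281 and 317 CPM, and day 6 gave 241, 293 and 264 CPM. Every Dox library lay below every untreated library. The log2 fold change at day 2 was -0.50 (SE 0.09, adjusted p = 0.0170, edgeR's quasi-likelihood test). The day 2 count is fragile: it was 0 without untreated replicate 2 or 3 and 0 without any 1 of the day 2 libraries. It was 2 without day 6 replicate 1, 8 without day 6 replicate 2, and 6 with DESeq2.

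Between consecutive days, 29 genes were lower at day 4 than at day 2 and none higher, with a median of -0.32 (10.2% of all tested genes lower, 15% higher). Without day 4 replicate 2 the count was 16, without day 4 replicate 3 it was 15, and with only the 2 groups in the fit it was 45. From day 4 to day 6, 50 genes fell and none rose, with a median of -0.44 (22.6% and 23.6% of all tested genes). Library totals gave a median of -0.82 for this step, and 1 of the 50 genes passed a test against a 1.5-fold change. None of the 29 did so for day 4 over day 2. Group means dropped at every step for 70 of the 86 genes, or 81.4%, against 23.7% of all tested genes. The test over the 4 groups called 73 ribosomal protein genes out of 86, where 68.7% of all tested genes were called.

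The size of the 2 later steps was compared directly. Of the 86 genes 1 had a step from day 4 to day 6 that differed from its step from day 2 to day 4, where 7.84% of all tested genes had a lower and 6.25% a higher second step. That gene was Rps28, a small-subunit protein near the mRNA exit (Entrez 54127, chromosome 17, 33823036 to 33824562 in GRCm38). Its level was 30.2, 30.3 and 40.5 CPM in the untreated libraries, 28.1, 27.8 and 23.9 CPM at day 2 and 27.2, 26.0 and 23.3 CPM at day 4. Day 6 gave 11.7, 11.9 and 9.76 CPM, below every other library. The step to day 6 was -1.19 and the step before it -0.06, a difference of -1.13 (SE 0.25, adjusted p = 0.00969, edgeR's quasi-likelihood test). The number of genes with a different step was 0 without day 4 replicate 1, 2 without untreated replicate 3 or day 4 replicate 3, 7 without day 6 replicate 2 and 4 with library totals.

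Genes of both subunits fell. Of the 45 tested core large-subunit genes 42 fell at day 6 and 32 at day 4, with medians of -0.95 and -0.49. Of the 31 core small-subunit genes 27 fell at day 6 and 23 at day 4, with medians of -0.96 and -0.52. At day 6, 38 of the 86 tested genes had a log2 fold change of -1 or below. The share of all tested genes at that size was not computed. At day 4, 69 genes had all 3 libraries below all 3 untreated libraries, against 29.2% of all tested genes, and at day 2 it was 39, against 12.5%.

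The most counted genes per kilobase show the size of the change. Rpl32 of the large subunit had 295, 367 and 340 CPM at day 6, against 760, 721 and 745 CPM in untreated cells (log2 fold change -1.15, SE 0.09, adjusted p = 3.61e-07, edgeR's quasi-likelihood test). Rpl8, a protein of the peptidyl transferase region, averaged 568 ± 95.4 CPM at day 6, with a highest library of 670 CPM, against 1040 ± 91.7 CPM and a lowest library of 939 CPM in untreated cells (SD, n = 3 each, log2 fold change -0.87). Rps15, in the head of the small subunit, had 291, 333 and 302 CPM at day 6, against 563, 585 and 655 CPM in untreated cells (-0.96). In none of these genes did a day 6 library reach the untreated ones.

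The P stalk, made of Rplp0, Rplp1 and Rplp2, is the flexible arm of the large subunit that recruits the elongation GTPases. All 3 genes fell at day 4 and day 6, with medians of -0.59 and -1.24. In the whole set 60 and 76 of 86 genes fell on these days, with medians of -0.51 and -0.91. Of all tested genes 20.2% and 32.9% were lower. Rplp0 (Entrez 11837, chromosome 5, 115559467 to 115563729) had 1880, 1900 and 2180 CPM in the untreated libraries, 1830, 1740 and 1720 CPM at day 2, 1370, 1270 and 1310 CPM at day 4, and 728, 971 and 817 CPM at day 6. Its libraries did not overlap between any 2 days, and its log2 fold change at day 6 was -1.24 (SE 0.11, adjusted p = 9.91e-07, edgeR's quasi-likelihood test). Rplp1 fell by 1.40 and Rplp2 by 1.15 on the log2 scale. Per kilobase of gene length, Rplp1 was the most counted of all members in untreated cells at 1900 CPM per kb, ahead of Rpl32 (1470), Rplp0 (1460), Rpl8 (1210) and Rps15 (1150). Ranked by untreated CPM without division by length, the 5 most counted members were Rplp0, Rps3, Rpl4, Rpl8 and Rplp1. These 5 held 35% of the summed ribosomal protein CPM at day 6 and 34.6% in untreated cells.

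Rpl5 and Rpl11 form, with the 5S ribosomal RNA, the particle that binds Mdm2 when ribosome assembly fails and thereby stabilises p53, a protein these cells lack per the title. Rpl5 had 14.1, 18.2 and 15.6 CPM at day 6, against 35.9, 36.7 and 31.6 CPM in untreated cells. Rpl11 had 1.49, 2.41 and 2.34 CPM at day 6, against 3.55, 4.45 and 4.88 CPM in untreated cells. Neither gene's day 6 and untreated libraries overlapped, and both were called lower at day 6, with log2 fold changes of -1.12 and -1.02. At day 4 Rpl5 alone passed the test. Rpl11 rests on 34 counts over the day 6 libraries and 91 over the untreated libraries.

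**Figure D3:**
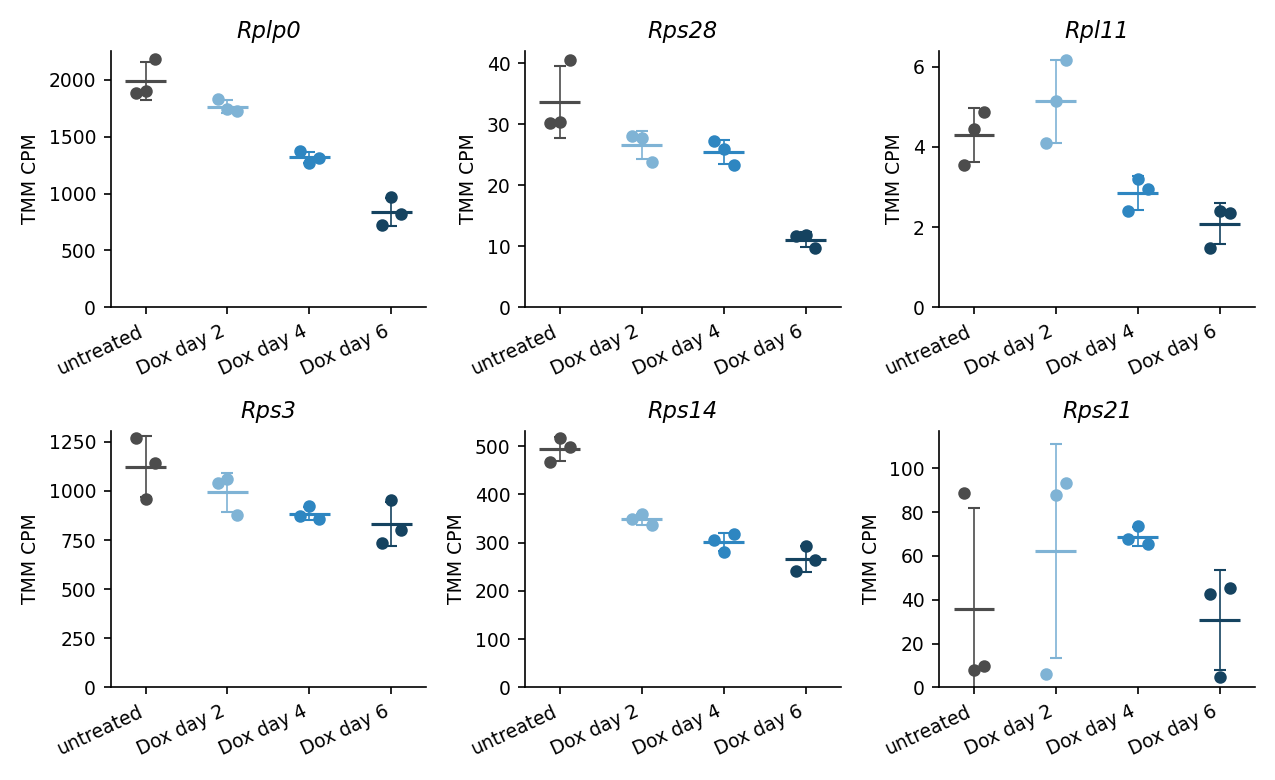
TMM-scaled CPM of 6 genes in each library (points), with group means (bars) and SDs (error bars, n = 3), from untreated to day 6. Rplp0 and Rps14 step down with the day, Rps28 drops between day 4 and day 6, Rpl11 and Rps3 change less evenly, and Rps21 takes 2 levels inside groups (its error bar is cut at 0).

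Genes at the rim of the peptide exit tunnel, where nascent chains leave and targeting factors dock, all fell at day 6: 7 of the 7 tested (Rpl17, Rpl19, Rpl22, Rpl23a, Rpl26, Rpl31 and Rpl35), with a median of -0.85. The whole set had 76 of 86 genes lower at day 6, with a median of -0.91, against 32.9% of all tested genes lower. At day 4, 5 of the 7 were called, with Rpl17 (-0.56) and Rpl23a (-0.59) not past the test. Rpl22, which also has a role in lymphocyte development, had 178, 211 and 212 CPM at day 6, against 440, 422 and 424 CPM in untreated cells. Rpl39, the eighth gene of this list, had 12 counts over the 12 libraries and was not tested.

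At the mRNA entry and the decoding centre, Rps2, Rps3 and Rps23 were all called lower at day 6, but to different extents. Rps3, which lines the mRNA entry channel, had 736, 955 and 802 CPM at day 6, against 1270, 960 and 1140 CPM in untreated cells. The closest libraries, at 955 CPM at day 6 and 960 CPM in untreated cells, were nearly level. Its log2 fold change of -0.43 (SE 0.13, adjusted p = 0.00824, edgeR's quasi-likelihood test) was the smallest fall of any called gene, and its share of ribosomal protein counts was 8.99% at day 6, against 6.30% in untreated cells. Rps2 fell by 1.12 on the log2 scale. Rps23, which reaches into the decoding centre, fell by 1.60 but rests on 17 counts at day 6 and 69 in untreated cells.

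Of 19 genes mutated in human Diamond-Blackfan anaemia, 17 fell at day 6 and 14 at day 4, with medians of -0.91 and -0.54. Rps19, the gene most often affected, had 59.7, 69.1 and 52.1 CPM at day 6, against 119, 127 and 141 CPM in untreated cells, and no libraries overlapped. Rps26 fell by 1.20 and Rps24 by 0.89 on the log2 scale. Rps29 (-0.36) and Rps27 (-0.81) were the 2 not called at day 6. For the whole set the day 6 count was 76 of 86.

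The other genes named by role followed the set. Rps6, the substrate of the Rps6k kinases, fell by 1.21 on the log2 scale at day 6. Rpsa, also known as a laminin receptor precursor, fell by 1.12, and Rps27a, which is made as a fusion with ubiquitin, by 0.78. Rps19bp1, the gene that is no ribosomal protein, fell by 0.90. All 4 also passed the test at day 4, together with Rps14.

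Levels ranged widely: 4 members were above 1000 CPM in untreated cells, 42 tested members above 100 CPM and 9 members below 3 CPM. The lowest tested genes per kilobase in untreated cells were Rpl3l (1.01 CPM per kb), Rps13 (1.94) and Rpl13 (2.36). Across the 86 tested genes the day 6 fold change had a Spearman correlation of -0.12 with the untreated level per kilobase, a description over genes that share their libraries. Of 65 genes averaging at least 10 CPM over all libraries 63 fell at day 6, with log2 fold changes between -1.59 and -0.43, and the 2 not called were Rps21 and Rpl7l1 (both -0.23). Of 21 genes under 10 CPM 13 fell, and the others were Rpl38, Rps29, Rpl3l, Rpl22l1, Rps27, Rpl9, Rps13 and Rpl13. A count of 3 equals 0.408 to 0.610 CPM, depending on the library, and such floors and all intervals cover counting error only.

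At the extremes of day 6, Rpl36a, a large-subunit protein at the tRNA exit site, had the lowest fold change. It had 0.213, 0.161 and 0.586 CPM at day 6, against 2.27, 1.95 and 2.73 CPM in untreated cells, which is 5 counts against 49. The log2 fold change was -2.81 (SE 0.52, adjusted p = 3.94e-04, edgeR's quasi-likelihood test), and the ratio of summed counts was 0.135 with an exact 95% interval of 0.0419 to 0.337. Next came Rps23 (-1.60), Rps28 (-1.59), Rpl37a (-1.56), Rpl10a of the L1 stalk (-1.55) and Rpl13 (-1.55). Rpl13 did not pass the test (adjusted p = 0.0691, edgeR's quasi-likelihood test) with 10 counts at day 6. Rps28 is the lowest among genes averaging at least 10 CPM. All 50-base coding windows of Rpl36a, Rps23, Rps28, Rpl10a and Rpl13 also stood in a transcript of another gene. For Rpl37a the share was 81.74%. The part of such copies in these values was not tested.

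At the other end, Rps13 (0.34, adjusted p = 0.596 by edgeR's quasi-likelihood test) was the only tested gene above 0 at day 6, with 23 counts at day 6 and 24 in untreated cells. Rps21 and Rpl7l1 (both -0.23), Rpl9 (-0.33) and Rps29 (-0.36) followed, none of them called, and Rps3 (-0.43) was. At day 4 the lowest values were Rpl3l (-1.67, not called), Rpl36a (-1.15, called) and Rps15a of the small subunit (-0.83, called). The highest at day 4 were Rps21 (0.95), Rps13 (0.12) and Rpl24 (0.09), none called.

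Rps21, a small-subunit protein, took 2 levels that did not follow the groups. It had 88.9, 7.93 and 9.91 CPM in the untreated libraries, 5.92, 87.7 and 93.1 CPM at day 2, 67.5, 73.8 and 65.2 CPM at day 4, and 42.7, 4.50 and 45.3 CPM at day 6. Replicates 2 and 3 of untreated, replicate 1 of day 2 and replicate 2 of day 6 are the 4 low libraries, with 28 to 69 counts, and the other 8 hold 200 to 710 counts. Its neighbours on chromosome 2 did not split that way, with 67.2 to 191 CPM for Osbpl2, 9.96 to 18.5 CPM for Adrm1 and 10.7 to 45.4 CPM for Cables2. Fold changes of Rps21 between groups, with standard errors of 1.03 at day 4 and 1.09 at day 6, therefore describe which libraries were low.

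Paralogs of ribosomal proteins can take their parents' place in some tissues. Of the 6 paralogs tested 3 fell at day 6, namely Rpl36al (-0.51), Rps27l (-0.53) and Rps27rt (-0.77), with a median of -0.50 for the 6. The retrocopies Rpl32l (-1.28), Rpl37rt (-0.99) and Rps23rg1 (-1.0) fell as well. The 7 tested parents had a median of -1.10 and 6 of them fell. Rpl36al, a close relative of Rpl36a, had 64.8, 80.0 and 61.1 CPM at day 6, against 93.9, 102 and 97.4 CPM in untreated cells. Rps27l, a gene that p53 can activate, had 28.6, 37.0 and 29.3 CPM at day 6, against 41.3, 56.9 and 39.7 CPM in untreated cells. Neither gene's groups overlapped. Rpl7l1, a factor of large-subunit assembly related to Rpl7, had 96.4, 125 and 101 CPM at day 6, against 120, 134 and 125 CPM in untreated cells, so the groups overlapped. Rpl3l, the muscle paralog of Rpl3, and Rpl22l1, the paralog of Rpl22, averaged below 5 CPM in every group and were not called. The ratio of each paralog to its parent was compared within libraries for 5 pairs and 3 days. Rpl36al over Rpl36a had the largest difference, 7.51 ± 0.96 at day 6 and 5.37 ± 0.27 in untreated cells on the log2 scale (SD, n = 3 each), with an exact permutation p of 0.1, the smallest that 3 against 3 libraries can give. Each ratio was taken after adding 0.5 to both counts. At day 6 Rpl36a had 1, 1 and 3 counts, so the size of its difference depends on few reads and on that added 0.5. No adjusted p was below 0.3.

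Ribosomal protein mRNAs have left many processed copies in the mouse genome. Of all 50-base windows in the longest coding sequence (GENCODE M21), the median gene had 88.6% that also stood in an annotated transcript of another gene, over 86 genes with a coding sequence, against a median of 0 over 78 mitochondrial ribosomal protein genes. For 27 genes every window was shared, and for 17 fewer than 50% were. Untreated levels were lower where more was shared: the median was 19.4 CPM per kb for the 27 fully shared genes and 210 CPM per kb for the genes with under 50%. The Spearman correlation across genes was -0.43, as a description. How reads that match several places were counted is not given in the sources used here, and the part of shared sequence in these levels was not tested.

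**Figure D4:**
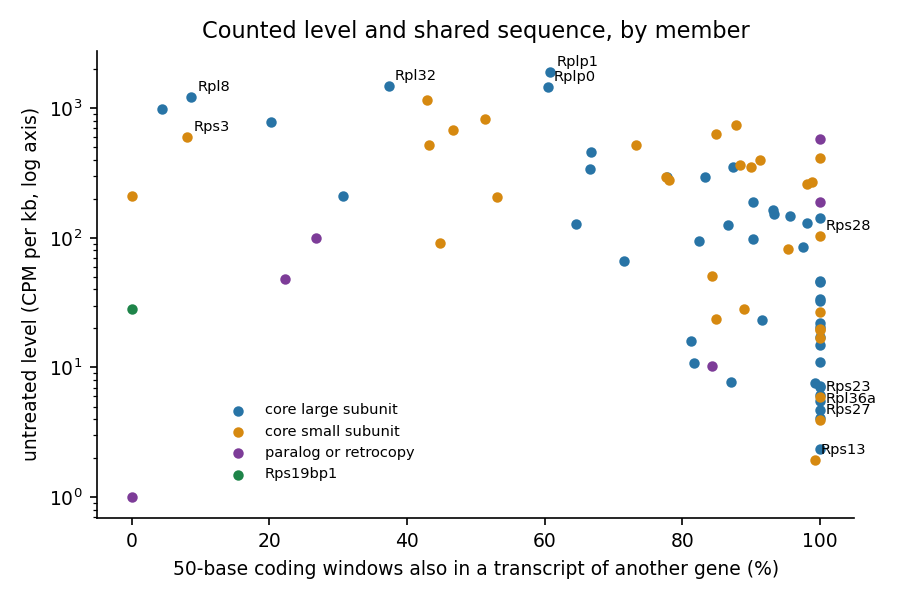
Each point is a gene, with the percentage of its 50-base coding windows found in a transcript of another gene on the horizontal axis and its untreated level in CPM per kb on a log vertical axis. Rps13, Rps27, Rpl36a and Rps23 have low levels at or near 100%, Rpl3l has the lowest at 0%, and Rpl8 and Rps3 combine high levels with little sharing.

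Calls were also counted by the share of windows found elsewhere, where 32.9% of all tested genes were lower at day 6 and 20.2% at day 4. Among the 15 tested genes with under 50% shared windows 12 fell at day 6 and 9 at day 4, with medians of -0.74 and -0.37. These 15 include Rps19bp1 and the paralogs Rpl3l, Rpl7l1 and Rps27l. Among the 27 fully shared genes 22 fell at day 6 and 13 at day 4, with medians of -0.85 and -0.46. Levels of single genes are uncertain where copies exist, as 3 pairs show. Rpl23 of the large subunit averaged 63.5 ± 5.75 CPM at day 6 and 134 ± 2.46 CPM in untreated cells. Its processed pseudogene Gm9794 averaged 536 ± 60.9 CPM at day 6 and 1120 ± 28.0 CPM in untreated cells (SD, n = 3 each). Of the 420 coding bases of Rpl23, 1 differs in Gm9794. Rpl24 averaged 2.99 CPM at day 6 and 5.19 CPM in untreated cells, and its pseudogene Gm9385, which differs at 1 of 471 bases, averaged 167 ± 21.6 CPM at day 6 and 293 ± 11.1 CPM in untreated cells. The retrogene Rps27rt has the 252 coding bases of Rps27 with no difference and averaged 218 CPM in untreated cells, where Rps27 averaged 2.26 CPM.

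The 60-base stretches below come from the coding sequences in GENCODE M21 (GRCm38), all 5′ to 3′ on the coding strand, and are shown because a read of this length separates the copies only at the base in capitals, or not at all. Rpl23 is at chr11:97778319-97778378 (minus strand), Gm9794 at chr6:66875458-66875517 (minus), Rpl24 at chr16:55969571-55969630 (plus), Gm9385 at chr9:116040751-116040810 (minus), Rps27 at chr3:90213242-90213301 (minus) and Rps27rt at chr9:114982642-114982701 (minus).
Rpl23: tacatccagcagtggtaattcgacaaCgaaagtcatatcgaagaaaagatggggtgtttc
Gm9794: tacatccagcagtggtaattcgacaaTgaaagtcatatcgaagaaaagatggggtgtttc
Rpl24: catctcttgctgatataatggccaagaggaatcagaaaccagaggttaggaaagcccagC
Gm9385: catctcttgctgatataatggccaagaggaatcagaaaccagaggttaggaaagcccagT
Rps27: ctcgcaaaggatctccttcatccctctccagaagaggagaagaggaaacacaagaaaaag
Rps27rt: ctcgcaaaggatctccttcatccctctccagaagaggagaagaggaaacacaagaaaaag

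Among loci annotated as pseudogenes, 24 with counts share at least 50% of the windows of 21 genes. In 11 of these families the loci held more CPM than the gene in untreated cells. Adding these pseudogene loci to their gene left 77 genes called lower at day 6 and 65 at day 4. Loci annotated as protein-coding were not added, and some of them held more counts than their gene and some fewer. One is Gm5148, which shares 91.12% of the windows of Rps23. It had 13293 counts over the 12 libraries, against 184 for Rps23. For Rpl24, a protein at the bridge between the subunits, the family had a log2 fold change of -0.45 at day 4 and -0.81 at day 6, where the gene alone had 0.09 and -0.79. Pseudogenes left out by the rule moved the same way: 14 of 20 tested fell at day 6 and none rose, with a median of -0.83. Their counts were 4.08 to 4.23 per 100 ribosomal protein counts at day 6 and 3.94 to 4.13 in untreated cells.

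Promoters of the set were read from RefSeq (GRCm38.p6) for 69 of the 89 genes, 250 bases before to 50 bases after the annotated start. The letters CGGAAG, the core of sites bound by many ETS factors such as Gabpa, stood on either strand in 63.8% of them, against 17.2% of 27025 promoters in the table. Those 27025 include genes with too few counts to be tested here, and shares over tested genes alone were not computed. GGGCGG stood in 58.0% against 35.9%, TATAAA in 10.1% against 14.2%, and the E-box CACGTG in 7.25% against 7.24%. The CGCG element, a palindrome bound by Banp, stood in 7.25% against 0.496%. A C followed by at least 4 pyrimidines began exactly at the annotated start in 20.3%, against 2.49%, and within 20 bases of it in 75.4%, against 49.6%. At day 6 genes with CGGAAG had a median log2 fold change of -0.93 and those without it -0.98, while genes with the tract at the start had -0.87 and those without it -0.96. The median was -1.21 for the 5 tested genes with the CGCG element and -0.91 for the 61 without it. It was -1.26 for the 6 with TATAAA and -0.91 for the 60 without it. With GGGCGG it was -0.91 and without it -0.96, and with CACGTG -0.88 and without it -0.96. These medians are descriptions with no test.

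The windows below run from 60 bases before the annotated start to 20 bases from it on, 5′ to 3′ on the gene's strand. Capitals mark CGGAAG, its reverse complement CTTCCG and the pyrimidine run that opens the transcript. They set 4 genes with both features beside Rplp0 and Rps28, which have neither in this window. The CGCG element stands once, in lower case, in the windows of Rps6 and Rps28. Rps6 is at chr4:86857348-86857427 (minus), Rps18 at chr17:33955646-33955725 (minus), Rpl38 at chr11:114668520-114668599 (plus), Rps10 at chr17:27635225-27635304 (minus), Rplp0 at chr5:115559407-115559486 (plus) and Rps28 at chr17:33824543-33824622 (minus).
Rps6: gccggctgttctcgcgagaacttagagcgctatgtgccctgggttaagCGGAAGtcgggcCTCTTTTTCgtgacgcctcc
Rps18: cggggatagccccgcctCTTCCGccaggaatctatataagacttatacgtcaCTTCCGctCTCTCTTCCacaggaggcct
Rpl38: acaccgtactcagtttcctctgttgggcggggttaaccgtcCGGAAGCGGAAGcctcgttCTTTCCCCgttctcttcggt
Rps10: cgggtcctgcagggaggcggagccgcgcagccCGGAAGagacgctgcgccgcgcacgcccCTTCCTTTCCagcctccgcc
Rplp0: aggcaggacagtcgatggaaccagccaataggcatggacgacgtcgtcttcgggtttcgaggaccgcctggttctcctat
Rps28: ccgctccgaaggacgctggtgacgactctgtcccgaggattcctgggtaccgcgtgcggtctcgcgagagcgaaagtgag
At day 6 the log2 fold changes of these genes were -1.21 for Rps6, -1.29 for Rps18, -0.77 for Rpl38 (not called), -0.77 for Rps10, -1.24 for Rplp0 and -1.59 for Rps28. An absent match says only that the letters are not in this window.

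Genes that make, load or translate ribosomes were set beside the members. Their counts at day 6 stand against 32.9% of all tested genes lower and 35% higher. Of 16 other 5′ TOP mRNAs 16 fell at day 6, with a median of -0.86, among them the nucleolar chaperone Npm1 (-1.87), the elongation factor subunit Eef1g (-1.34), Hnrnpa1 (-1.26) and the initiation factor subunit Eif3f (-1.13). All 7 5′ TOP host genes of small nucleolar RNAs fell (median -1.28, Gas5 -1.74). Of 8 chaperones that escort ribosomal proteins 7 fell (median -0.91), among them Grwd1 (-1.95), which carries Rpl3, and Tsr2 (-1.90), which carries Rps26. Of 32 ribosome biogenesis genes 30 fell, with a median of -1.30, and none rose. They include Gnl3 (-2.39), a nucleolar GTPase, and Dkc1 (-2.05), the pseudouridine synthase of ribosomal RNA. RNA polymerase I and its factors had 11 of 13 lower (Polr1b -1.83) and 1 higher (Taf1b, 0.45), with a median of -0.74. Among ribosome components that the symbol rule misses, Rack1 (-0.99) fell and Fau (-0.22) was not called.

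Mitochondrial ribosomal proteins were less uniform. Of 76 tested 44 fell and 3 rose at day 6, with a median of -0.41, and the range ran from Mrps6 (-1.40) to Mrps18c (1.17). Stalled-ribosome rescue genes had 4 of 8 lower and 1 higher (median -0.40). Regulators of 5′ TOP translation had 3 of 12 lower and 3 higher (median 0.03), below the shares of all tested genes in both directions, with Larp1 at -0.36 and the mTOR partner Mlst8 at 1.91. Mtor itself had 98.5, 107 and 110 CPM at day 6, against 94.2, 101 and 93.4 CPM in untreated cells, and was not called. Of 10 factors known at ribosomal protein promoters 7 rose and 1 fell (median 0.39). The one that fell was Myc, a driver of ribosome production, with 26.0, 50.3 and 28.9 CPM at day 6, against 325, 253 and 253 CPM in untreated cells (log2 fold change -2.97, SE 0.27, adjusted p = 2.38e-06, edgeR's quasi-likelihood test). Its partner Max rose by 1.30.

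**Figure D5:**
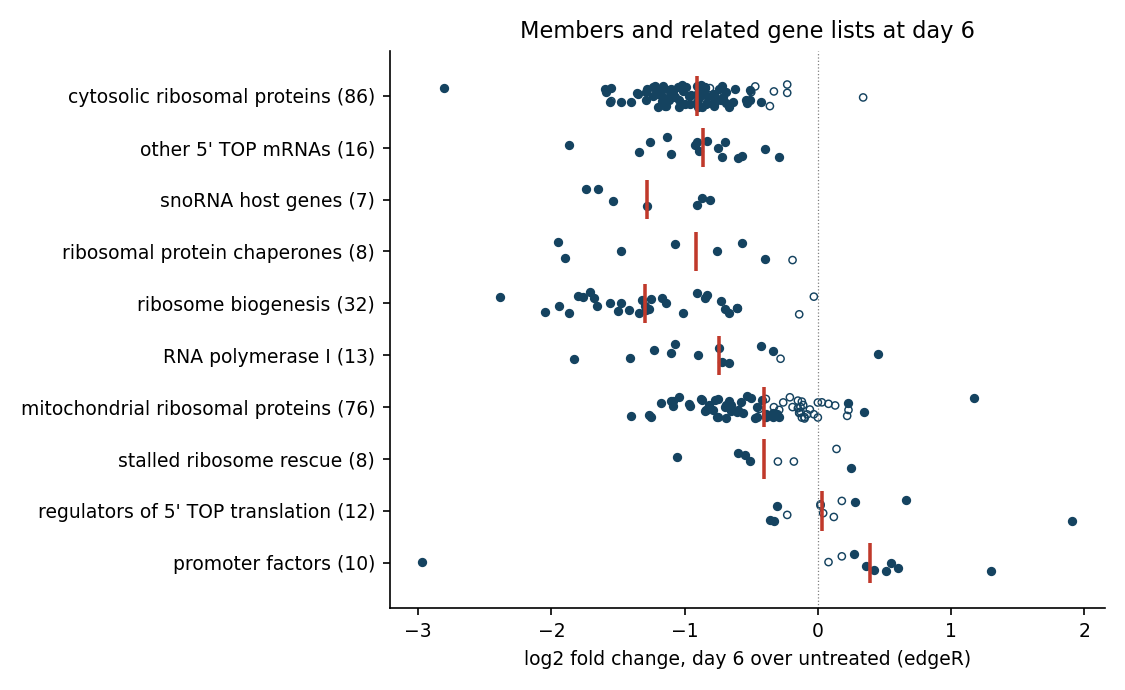
Log2 fold changes at day 6 over untreated for the 86 tested ribosomal protein genes and 9 related lists, 1 point per gene, filled where the test was passed and open where it was not, with red bars at the medians. The first 6 lists have medians from -1.30 to -0.74, mitochondrial ribosomal proteins spread to both sides of 0 around -0.41, and the promoter factors lie mostly above 0 apart from Myc near -3.

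Genes outside the set were ranked by the Pearson correlation of their log2 CPM with the mean log2 CPM of the tested members over the 12 libraries. Among the 8 highest were Gnl3 (0.995), the mitochondrial chaperone Trap1 (0.994), the gene model Gm2614 (0.994), the retinol enzyme Retsat (0.993), the granule protease gene Ctsg (0.993), the Rpl23 pseudogene Gm9794 (0.992) and Armcx1 (0.992). Such values were common: 653 of 11971 other tested genes reached at least 0.95.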

How the data were processed

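The deposited files hold raw read counts per Entrez gene with a gene length, and their headers name no other step by the authors. The submitters' processing notes list featureCounts, CASAVA 1.8.2, limma 3.22.0, edgeR 3.8.2 and the build mm10, with no roles. Not given in the sources used here are the aligner, the strand setting and the treatment of reads with several matches. Symbols and positions came from RefSeq (25275 identifiers, GRCm38.p6) and GENCODE M21 (18), and 1886 identifiers stayed unnamed with 0.487% to 1.06% of a library's counts. Genes passing filterByExpr (12057) were fitted in R 4.3.3 with edgeR 4.0.16 (TMM factors, robust glmQLFit, all 12 libraries, group as the only term). This left 8 residual degrees of freedom and a biological coefficient of variation of 14.3%. Calls are two-sided quasi-likelihood tests with an adjusted p under 0.05, by Benjamini-Hochberg over all tested genes. The scripts were run on simulated counts with less spread and fewer changed genes than these data, so that run does not show how the calls behave here. Between replicates the counts varied 2.62 to 44.1 times as much as counting error gives, so no library repeats another.

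Members and lists were chosen with earlier results of these data known, and lists are described by counts and medians, with no list test. Genes were named by rule: the 6 lowest and 6 highest at day 6, the 3 lowest and 3 highest at day 4, any gene called at day 2 or called higher, the 5 highest and 3 lowest levels per length, role groups, untested genes, up to 4 called genes at either end of each related list, and the 8 genes most like the set. Some genes that these rules name are not reported here. Rpl23, Rps18, Mtor, Trp53, the retrocopies, the pseudogenes and the neighbours of Rps21 were named after their values were seen. Alternatives covered other scalings (RLE, upper quartile, library totals, TMM without the members), DESeq2 1.42.0, limma voom 3.58.1, filters, a 1.5-fold threshold, core genes only, a replicate block, fits of the groups compared alone and each library left out. Restricting to genes with under 50% shared windows and adding pseudogene counts were chosen after the data were seen.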

Additional observations from a re-analysis of the deposited data

Results flagged for a closer look

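Rps28 was the ribosomal protein gene whose change from day 4 to day 6 differed from its change from day 2 to day 4 by a direct test of the 2 steps. The difference was -1.13 on the log2 scale (adjusted p = 0.00969, edgeR's quasi-likelihood test), with steps of -1.19 and -0.06. All 3 day 6 libraries (9.76 to 11.9 CPM) lay below all 3 day 4 libraries (23.3 to 27.2 CPM). It was 1 of 86 tested ribosomal protein genes, where 7.84% of all tested genes had a lower and 6.25% a higher second step. Without day 4 replicate 1 no ribosomal protein gene passed this test. Every 50-base window of its coding sequence also stands in a transcript of another gene, and the part of such copies in this value was not tested.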

How the results depend on the processing

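No ribosomal protein gene was called higher under any setting, and no fold change called lower at day 4 or day 6 against untreated turned round (single genes were not followed in the other comparisons). Of the genes called lower 41 of 60 at day 4 and 71 of 76 at day 6 kept their call under every setting that tested them, other than the 1.5-fold threshold. Rpl36a and Rps23, counted among the 71, were tested under 22 settings, where most genes had 23. The day 2 count of 1 was 2 with RLE factors, 2 with a filter of 5 CPM in 3 libraries, 6 with DESeq2, 5 with only the groups compared, 0 at the 1.5-fold threshold and 0 to 8 with a library left out. The 1.5-fold threshold gave 0 of 60 genes at day 4, 0 of 29 for day 4 over day 2 and 1 of 50 for day 6 over day 4. Fitting only the groups compared gave 45 in place of 29. Upper-quartile factors gave medians of -0.60 at day 4, -1.16 at day 6 and -0.59 for day 6 over day 4. Library totals gave -0.62, -1.42 and -0.82, with -0.46 for day 4 over day 2, a summed level of -1.45 and 4 genes with a different second step. With only genes under 50% shared windows (15 tested, so fewer genes) the counts were 0, 9 and 12 at days 2, 4 and 6, 4 and 9 between consecutive days, 0 for the step and 11 over the 4 groups, with medians of -0.37 at day 4 and -0.74 at day 6. Leaving out 1 library gave 44 to 64 genes at day 4, 73 to 77 at day 6 (median -1.0 to -0.89), 15 to 39 for day 4 over day 2, 37 to 57 for day 6 over day 4, 0 to 7 for the step and 67 to 74 over the 4 groups.

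Replicate numbers did not pair the libraries: deviations of same-numbered libraries correlated at a mean of 0.004 (-0.17 to 0.29 over 18 pairs), and 3 of the 12 lay nearest to a library of their number. With the replicate block the counts were 1, 56 and 76 at days 2, 4 and 6, 26 and 49 between consecutive days, 1 for the step and 72 over the 4 groups.

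Depth limits the genes under 3 CPM, whose day 6 values rest on few reads. Shared sequence limits the level of single genes, and 3 libraries per group limit the day 2 comparison.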
